A study of Arabidopsis thaliana with 12 samples.

Results

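The response of a type-B response regulator mutant of Arabidopsis thaliana to the cytokinin trans-zeatin (tZ) was read from 6 Affymetrix ATH1 arrays of the 12 in the series. The members were taken by title, the 3 arrays of tZ-treated mutant plants and the 3 arrays of mutant plants given the solvent DMSO. Seedlings were grown for 2 weeks on vertical agar plates with Murashige and Skoog salts, sprayed with 20 µM tZ or with 0.02% DMSO for 1 h, and their aerial parts were taken for total RNA. The labels give the mutant plants as SALK_098604 and SALK_054752, insertion lines known as alleles of ARR10 and ARR12 in the Col-0 background, and do not state if a plant carried both insertions or just 1 of them. The other 6 arrays, Col-0 wild type given the same 2 sprays, 3 arrays each, served only to show which responses of the wild type remained in the mutant. Nothing in the labels tells if a group's 3 arrays stand for separately grown plants, so a p-value here measures the spread between arrays, which may be technical.

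Cytokinins are perceived at membrane-bound histidine kinases, and the signal passes by phosphotransfer proteins to response regulators in the nucleus. Type-B regulators such as ARR1, ARR10 and ARR12 bind DNA and switch on target genes. Among the quickest targets are the type-A regulators, which have no DNA-binding domain and damp the same pathway. In shoots, cytokinin is known for promoting cell division and greening and for delaying senescence. Because ARR1, ARR10 and ARR12 overlap in function, plants that lack some of them keep part of the response.

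Each value is a signal of 1 probe set on a linear scale. On all 12 arrays the mean signal after trimming 2% at each end was 100, so the deposited signals are already on a common level, and a change is relative to that level. Differences were tested as log2(signal + 10) with limma and adjusted over all 22746 probe sets that are not array controls. On that scale the folds of dim probe sets come out too small. The highest of 27 bacterial control probe sets not expected in plant RNA read 11.2, and signals under it are called under the floor. The annotation used here gave 1 gene name to 13513 of the tested probe sets, several to 503 and none to 8730. None was named ARR10 or ARR12, so the loss of these transcripts could not be checked. Arrays of a mutant group correlated with the mean of their group mates at r = 0.991 to 0.994 across probe sets. The mesophyll genes RCA (rubisco activase) and LHCB4.1 (a light-harvesting protein) were among the bright ones, with mutant group means of 4762 to 5114 and 4720 to 4944. The root gene PYK10 was also bright, at 1129 under DMSO and 631 under tZ.

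The tZ and DMSO arrays of the mutant also differed in the array controls. The phage transcript cre, a spike-in, read 3050, 3020 and 3120 on the tZ arrays and 4670, 4780 and 4670 on the DMSO arrays. The bacterial spike-ins bioB, bioC and bioD were lower on the tZ arrays too, at 0.567, 0.659 and 0.769 of their DMSO means. The 5' to 3' signal ratio, a measure of how complete the labelled RNA is, was 0.428, 0.489 and 0.463 for GAPDH under tZ and 0.0712, 0.0593 and 0.0666 under DMSO. For actin the ratio was 0.0418 ± 0.00564 against 0.0103 ± 0.00173, and for ubiquitin 0.305 ± 0.0212 against 0.174 ± 0.00803 (SD, n = 3; p = 0.10 by a two-sided exact permutation test for each control named so far, the smallest that 3 against 3 arrays allow). In none of these did the groups overlap. The 25S rRNA was lower on all 3 tZ arrays (28.3 ± 1.56 against 54.8 ± 2.99), whereas for the 5S rRNA the groups overlapped (104, 32.5 and 25 against 33.1, 23.4 and 22; exact permutation p = 0.30). Of all 64 control probe sets, 9 were higher and 31 lower on the tZ arrays without overlap. The spray and this division of the arrays coincide in the mutant, as they do in wild type, and their parts in any difference between tZ and DMSO cannot be told apart.

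Of the tested probe sets, 4081 were higher (17.9%) and 5661 lower (24.9%) with tZ in the mutant at an adjusted p of 0.05, 42.8% in all. At least 2-fold changes were fewer, 1140 higher (5.01%) and 716 lower (3.15%). The 3 tZ arrays lay above the 3 DMSO arrays in 4884 probe sets (21.5%) and below them in 6842 (30.1%), which is the background for each gene described below as having groups that did not overlap. The median change over all tested probe sets was -0.07 on the log2 scale. In whole aerial parts, a change in the share of a cell type and a change in RNA per cell cannot be told apart.

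The direction of these calls varied with gene length. Over all 13367 probe sets of nuclear genes, split into 5 bins of nearly equal number by the gene's length in the RefSeq TAIR10.1 annotation, the share called lower was 6.02%, 15.1%, 23.3%, 29.3% and 38% from the shortest bin to the longest. The share called higher was 16.3%, 23.8%, 21.9%, 14.5% and 7.18%, so it was highest in the second bin and not in the shortest, and the median change was 0.01, 0.01, -0.05, -0.12 and -0.20 on the log2 scale. Among 5009 probe sets of nuclear genes with a mean signal of at least 50, split anew into 5 bins, 54.4% of the shortest bin (median length 1310 bp) were called higher and 20.8% lower. In the longest bin (median 4520 bp) 9.58% were called higher and 60.4% lower. The median change by bin, from short to long, was 0.35, 0.09, -0.08, -0.23 and -0.40 on the log2 scale in the mutant, and in wild type it was 0.31, 0.08, -0.08, -0.20 and -0.38. The mutant change correlated with log10 length at Pearson's r = -0.216 and Spearman's rho = -0.244 over all 13367 probe sets, and at -0.383 and -0.376 over these 5009, as a description, since the points share their arrays and genes are not independent. Of the 100 largest rises 53 named 1 gene, and of the 100 largest falls 56 did, 5 of them plastid-encoded. Among those with a known length, the median was 1560 bp for the rises and 3410 bp for the falls. All named nuclear genes had a median of 2120 bp. The difference between the mutant's and the wild type's change was nearly flat over length, with medians from 0.04 in the shortest bin to -0.03 in the longest. The split and the signal minimum were chosen after the largest changes had been seen, and the part of length or of the 5' to 3' ratios in any gene's change was not tested.

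**Figure D1:**
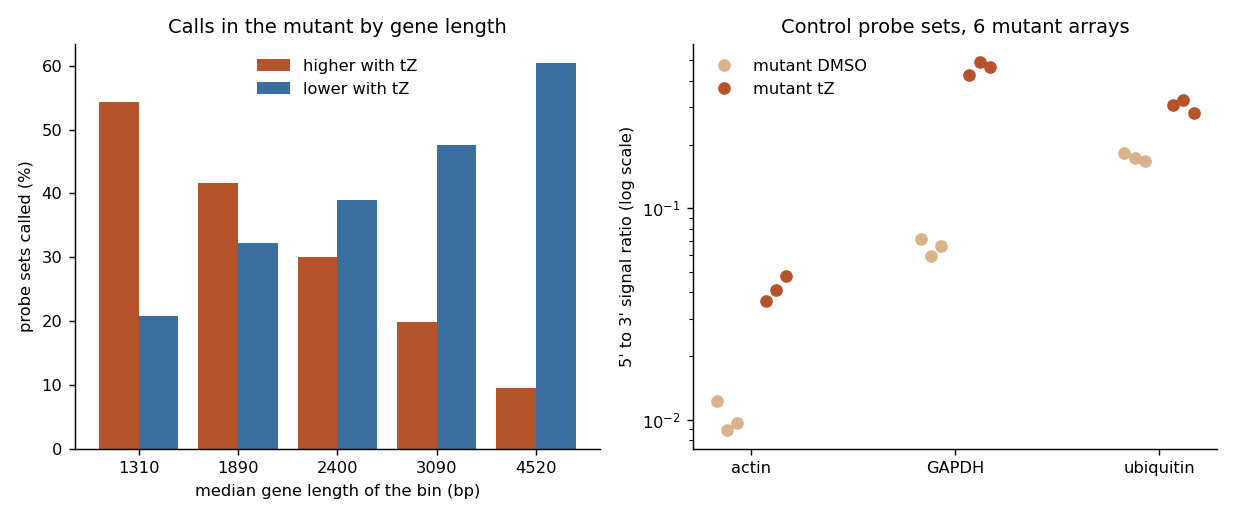
Left, the percentage of probe sets called higher (orange) and lower (blue) with tZ in the mutant at an adjusted p of 0.05, in 5 bins of nuclear genes by length (bp), for a mean signal of at least 50. Right, 5' to 3' signal ratios of 3 control transcripts on each of the 6 mutant arrays (log scale). Among these brighter genes the share called higher goes from 54.4% in the shortest to 9.58% in the longest (16.3% and 7.18% without the signal minimum), and the 3 tZ arrays lie above the 3 DMSO arrays for each control.

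ARR15, a type-A regulator and a classic early cytokinin target, still rose steeply in the mutant. Its signal was 8.91, 13.7 and 10.9 on the DMSO arrays, of which 1 lay above the floor, and 165, 154 and 156 on the tZ arrays. The groups were far apart, and the tZ arrays were within a narrow band (log2 change 3.00, SE 0.14, adjusted p = 2.7e-09). Wild type reached 447 ± 40.2 with tZ from 14.7 ± 5.05, a log2 change of 4.23. The difference of the changes, the interaction, was -1.23 (SE 0.20), with an unadjusted p of 2.7e-05 and an adjusted p of 0.18. Within the tZ arrays alone, ARR15 stood lower in mutant than in wild type plants (log2 difference -1.44, adjusted p = 4.4e-04).

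ARR16 was the second type-A regulator with a named probe set, and it did not pass in the mutant. It read 99.8, 91.9 and 86.3 under DMSO and 111, 97.1 and 97.0 under tZ, with overlap (log2 change 0.12, SE 0.08, adjusted p = 0.24). In wild type it went from 85.5 ± 1.37 to 178 ± 4.99, a log2 change of 0.98. The interaction of -0.86 (SE 0.11) had the smallest p of any probe set that names 1 gene and passed in either genotype, 2.4e-06 unadjusted and 0.054 adjusted. That value lies next to the threshold and passed in 5 of the 21 other settings, in which the adjusted p ran from 0.021 to 0.33. Under tZ alone ARR16 stood lower in mutant than in wild type plants (log2 difference -0.75, adjusted p = 7.1e-04).

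ARR18 and ARR19 were the only type-B regulators measured by name, and both stayed under the floor in all 4 group means. Neither passed in the mutant.

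**Figure D2:**
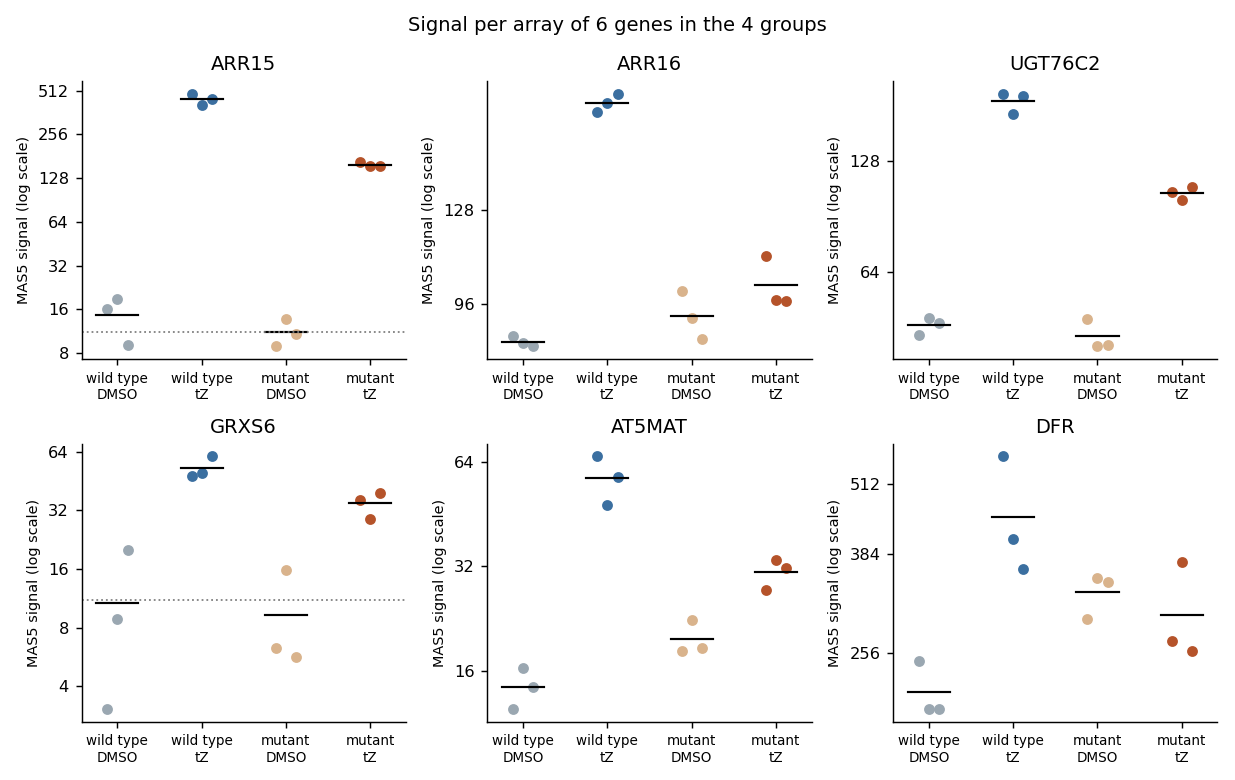
MAS5 signal per array (log scale) of ARR15, ARR16, UGT76C2, GRXS6, AT5MAT and DFR in wild type and mutant, with DMSO or tZ. Points are arrays, bars are group means and the dotted line is the highest absent-control signal, 11.2, where it falls in the range. In ARR15, UGT76C2, GRXS6 and AT5MAT the mutant's tZ arrays lie between its DMSO arrays and the wild type's tZ arrays. In ARR16 and DFR the mutant's tZ and DMSO arrays overlap.

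UGT76C2, an enzyme that conjugates cytokinins to glucose at ring nitrogens and so inactivates them, rose in the mutant as well. The DMSO arrays read 47.6, 40.1 and 40.4 and the tZ arrays 106, 100 and 109. The groups did not overlap and the change was 2.46-fold in mean signal (log2 change 1.13, SE 0.09, adjusted p = 1.6e-07). Wild type changed by 1.82, and the interaction of -0.69 (SE 0.12) had an unadjusted p of 8.2e-05 and an adjusted p of 0.27. Within the tZ arrays the mutant was lower than wild type (log2 difference -0.77, adjusted p = 0.0019). Together with ARR15 and ARR16, UGT76C2 made up the 3 probe sets with 1 gene name among the 8 (0.0352%) that differed between the genotypes under tZ. Its neighbour UGT76C1, which makes the same kind of conjugate, fell in the mutant from 75.1, 59.9 and 71.0 to 48.9, 41.2 and 50.5 (log2 change -0.47, adjusted p = 0.0041). The change of UGT76C1 in wild type was -0.40. UGT73C1, which attaches glucose to the side chain of zeatin, was under the floor in all group means.

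All 4 measured genes listed as further cytokinin-induced genes, UGT76C2 among them, rose in the mutant, against 17.9% of all probe sets. That list was taken up with its behaviour in these arrays known, so its direction is no independent evidence. On the log2 scale its median change was 1.05 in mutant and 1.62 in wild type plants. GRXS6, a CC-type glutaredoxin, went from 6.3, 15.7 and 5.68 to 36.2, 28.8 and 39.2 (log2 change 1.25, SE 0.26, adjusted p = 0.0013). Its mutant DMSO mean of 9.24 was under the floor. AT2G40230 went from 19.8, 21.3 and 22.1 to 56.6, 57.5 and 40.4 (log2 change 0.97). TINY2, an AP2/ERF transcription factor, went from 17.0, 15.1 and 14.3 to 31.7, 27.4 and 27.7 (log2 change 0.61, adjusted p = 0.0061). None of these 3 overlapped between tZ and DMSO. Their changes in wild type were 1.69, 1.56 and 0.76, and none of the differences between genotypes passed (interaction adjusted p = 0.87, 0.66 and 0.94).

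Of the named anthocyanin genes, DFR and UGT79B1 rose in wild type and did not pass in the mutant, and the difference between genotypes passed adjustment for neither. DFR, the reductase at the start of the anthocyanin branch, read 295, 348 and 343 under DMSO and 269, 373 and 259 under tZ in the mutant. These groups overlapped (log2 change -0.14, SE 0.16, adjusted p = 0.54), while wild type went from 219 to 449. The interaction was -1.13 (SE 0.23, unadjusted p = 2.4e-04, adjusted p = 0.28). UGT79B1, which adds a xylose to anthocyanins, read 205, 169 and 177 and then 144, 170 and 130, again with overlap (log2 change -0.30, adjusted p = 0.24), against 0.81 in wild type (interaction adjusted p = 0.43). UGT78D2, a flavonoid 3-O-glucosyltransferase, fell in the mutant from 327, 371 and 375 to 244, 246 and 220 (log2 change -0.57, adjusted p = 4.3e-04) and did not pass in wild type (log2 change 0.12). Its interaction adjusted p was 0.34. Of the 3 measured members of the list, 0 rose, 1 fell and 2 did not pass in the mutant. There 17.9% of all probe sets rose and 24.9% fell. In wild type 2 of the 3 rose, against 18.2% of all probe sets. Under DMSO the mutant means of DFR, UGT79B1 and UGT78D2 (329, 184 and 357) lay above those of wild type (219, 120 and 277), a difference that was not tested here. AT5MAT, which adds malonyl groups to anthocyanins and was not in the list, rose from 18.3, 22.4 and 18.6 to 27.3, 33.4 and 31.7 (log2 change 0.45, SE 0.13, adjusted p = 0.013; without tZ replicate 2 of the mutant, adjusted p = 0.055), against 1.47 in wild type (interaction -1.01, adjusted p = 0.28).

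Other genes among the smallest interaction p-values were of mixed kinds. AT1G28600 rose in the mutant by 0.33 on the log2 scale (adjusted p = 0.0079) and in wild type by 0.96. XTH32, a xyloglucan endotransglucosylase of the cell wall, read 253, 249 and 295 under DMSO and 242, 261 and 225 under tZ, with overlap (log2 change -0.13, adjusted p = 0.24), and rose in wild type by 0.44 (interaction adjusted p = 0.28). AT2G06470 was under the floor in all 4 group means. Over the whole array, 0 of 22746 interactions passed in limma (0%), and 1598 had an unadjusted p under 0.05 (7.03%). Of these 1598, 806 (3.54% of all probe sets) had the more negative change in the mutant.

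Most of what changed in wild type changed in the mutant in the same direction. The 2 comparisons share no array, but both run across the division of the control probe sets described above. Of 4145 probe sets that rose in wild type (18.2%), 3479 (83.9%) rose in the mutant, 662 did not pass and 4 fell. Of 5774 that fell in wild type (25.4%), 4716 (81.7%) fell in the mutant, 1055 did not pass and 3 rose. The background shares for the mutant were 17.9% and 24.9%. Among those that changed at least 2-fold in wild type, 1154 of 1169 rises (98.7%) and 796 of 803 falls (99.1%) were called in the mutant. The sizes were close, with medians over the 4145 rises of 0.70 in wild type and 0.67 in the mutant on the log2 scale, and over the 5774 falls of -0.62 and -0.57. Read the other way, 3479 of the mutant's 4081 rises (85.2%) and 4716 of its 5661 falls (83.3%) had the same call in wild type.

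**Figure D3:**
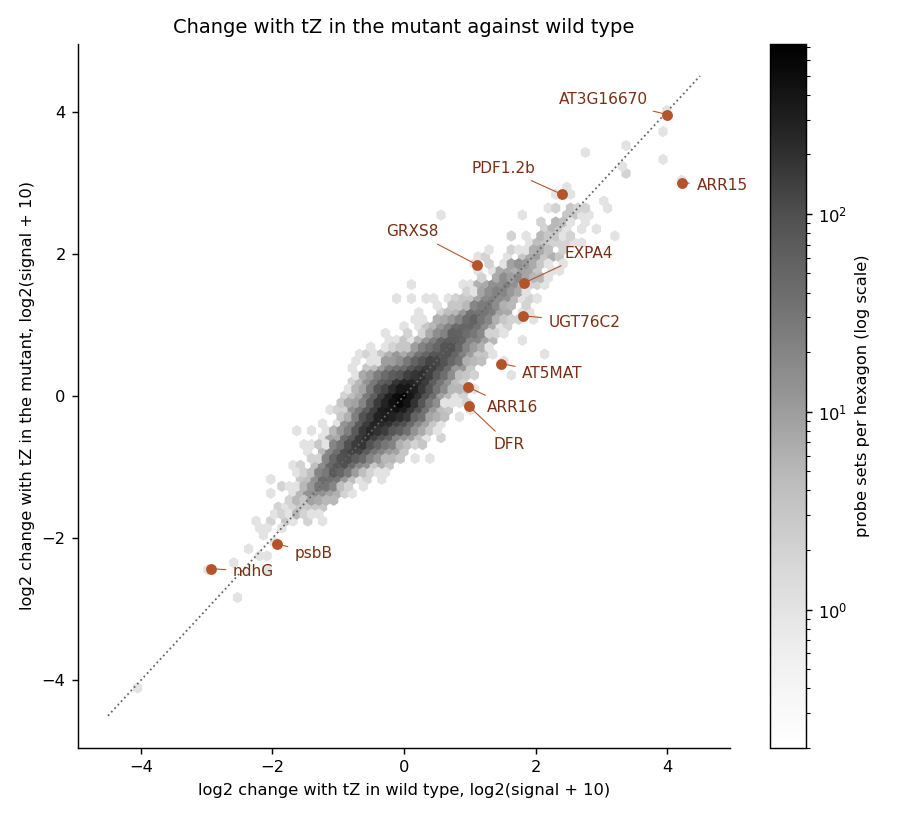
Change with tZ in the mutant against the change in wild type for all 22746 tested probe sets, both on the log2(signal + 10) scale, with the shade showing the number per hexagon and the dotted line marking equal changes. ARR15, UGT76C2, AT5MAT, ARR16 and DFR lie under the line, while AT3G16670, psbB and EXPA4 lie close to it.

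Some genes showed nearly the same change in both genotypes. By closeness of the paired values among genes changed at least 2-fold, these were AT2G40600 (log2 change 1.49 in each), AT5G11280 (1.76), AT5G45590 (1.16 in the mutant and 1.17 in wild type) and AT5G14910 (1.03) among the rises. Among the falls they were UPP, a uracil phosphoribosyltransferase (-1.22), AT3G22845 (-1.19), AT5G51770 (-1.08) and AT1G17230 (-1.03). They were picked for this closeness, which is therefore a description. For AT2G40600 the mutant arrays read 49.8, 50.2 and 52.3 under DMSO and 150, 174 and 159 under tZ.

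Of the probe sets that changed at least 2-fold in wild type, 15 rises and 7 falls did not pass in the mutant. Among the named ones, picked once their values were known, the plastid gene rbcL (the large rubisco subunit) read 361, 306 and 536 under DMSO and 633, 562 and 519 under tZ (log2 change 0.53, adjusted p = 0.061), against 1.15 in wild type. AT5G19110 had a log2 change of 0.59 (adjusted p = 0.050) against 1.25, from a mutant DMSO mean of 7.02, under the floor. AT1G58170 had 0.44 (adjusted p = 0.087) against 1.04. None of these 3 genes had an interaction that passed (adjusted p = 0.75, 0.73 and 0.70). In the other direction, OSM34, an osmotin-like defence protein, passed in the mutant (adjusted p = 0.0061) with overlap, from a DMSO mean of 4.61, under the floor, to tZ arrays of 37.0, 41.0 and 9.28, of which 1 was under it. Both wild type means (8.84 and 7.43) were under the floor. In the mutant AT5G19120 rose from a mean of 143 to 301 (log2 change 1.00, adjusted p = 7.0e-05), and it had means of 204 and 255 in wild type. Their interaction adjusted p-values were 0.58 and 0.53.

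The named genes with the largest rises in the mutant all rose in wild type too. AT3G16670 read 43.0, 24.5 and 19.6 under DMSO and 703, 551 and 498 under tZ, a 20.1-fold change in mean signal (log2 change 3.96, SE 0.22, adjusted p = 8.3e-09). AT4G34290 went from 40.1, 19.1 and 30.4 to 565, 495 and 501 (log2 change 3.77). AT5G19590 went from 33.1, 27.3 and 41.3 to 347, 335 and 398 (log2 change 3.08). In wild type these 3 genes changed by 4.00, 3.92 and 3.37. AT5G02160 rose by 2.89, AT1G56220 by 2.85, AT5G04600, AT3G18280 and AT4G13220 by 2.67 each, and AT5G09510 by 2.65, and their changes in wild type lay between 2.19 and 2.63. All but AT5G04600 of these 9 were shorter than the median named gene, from 703 bp for AT3G18280 to 2048 bp for AT1G56220, while AT5G04600 had 3411 bp. AT1G47400, counted in the list of iron deficiency genes, rose from 39.4, 44.1 and 59.96 to 334, 408 and 309 (log2 change 2.65), and in wild type by 2.71. PYE, a transcription factor of the iron deficiency response, rose by 0.81 (adjusted p = 0.0017) and BHLH101, of the same list, did not pass (log2 change 0.25, with both mutant group means under the floor).

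PDF1.2b, a plant defensin induced by jasmonate and ethylene, rose by 2.84 on the log2 scale, but its tZ arrays were far apart, at 2033, 618 and 273 against 81.3, 78.6 and 113 under DMSO (SE 0.63, adjusted p = 0.0020). PDF1.2 had the same order, with 1949, 445 and 203 against 112, 106 and 105 (log2 change 2.29, SE 0.70, adjusted p = 0.017). The high array is replicate 1 in both, and without single arrays the change of PDF1.2 ran from 1.40, without that array (adjusted p = 0.083), to 3.00. The 2 genes are close relatives whose probes may share signal. THI2.2, a thionin, changed by 0.54 with overlap (adjusted p = 0.047), a call that was lost in 15 of 22 other settings, 9 of them with 1 array left out, and THI2.1 was under the floor in all group means.

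The largest falls held several plastid-encoded genes and 7 that the annotation places on nuclear chromosomes. AT3G26890 read 432, 552 and 476 under DMSO and 88.4, 94.8 and 87.0 under tZ (adjusted p = 8.1e-09 for a log2 change of -2.31, SE 0.13), and in wild type it changed by -2.07. AT4G16980 went from 113, 145 and 116 to 15.1, 16.6 and 17.6 (log2 change -2.34). ATSPS4F, a sucrose phosphate synthase, went from 766, 678 and 789 to 239, 226 and 186 (log2 change -1.74), against -1.41 in wild type. The groups of these 3 genes did not overlap. AT5G54630 changed by -1.82, AT4G16180 by -1.78 and AT1G43910 by -1.76, and AT2G07741 by -2.22. Their changes in wild type ran from -2.25 to -1.64. Whether the probe set of AT2G07741 reads only this gene was not tested, so its fall may not be that of a nuclear transcript. Of these 7 genes, ATSPS4F, AT4G16180 and AT3G26890 are 6181, 5864 and 4784 bp long, over the median of 2120 bp, AT5G54630 is next to it at 2193 bp, and AT1G43910, AT2G07741 and AT4G16980 are under it at 1803, 1158 and 1157 bp.

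**Figure D4:**
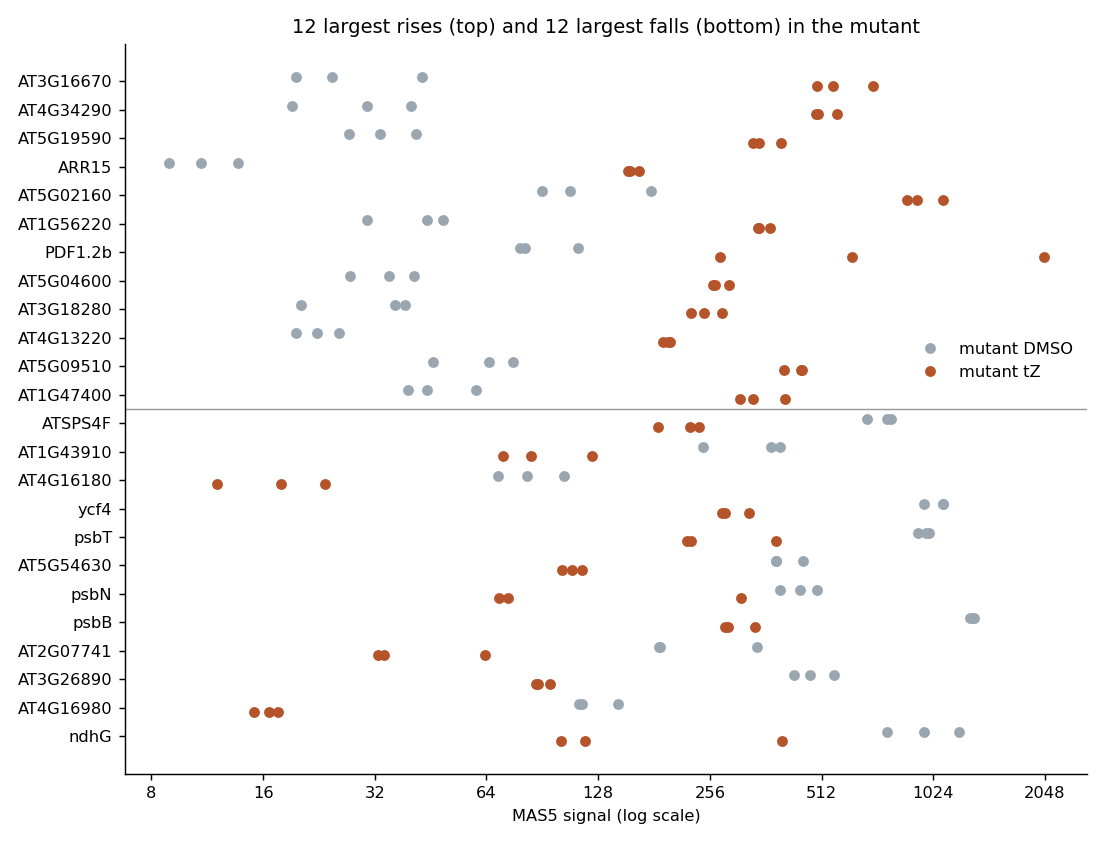
MAS5 signal (log scale) on the 3 DMSO arrays (grey) and the 3 tZ arrays (orange) of the mutant for the 12 named genes with the largest rises and the 12 with the largest falls. The groups do not overlap, which the choice of these genes required, and PDF1.2b, psbN and ndhG have 1 tZ array well above the other two.

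Unnamed probe sets held changes of the same size. The largest fall of all was in 256824_at, from 298, 354 and 388 under DMSO to 7.78, 13.4 and 11.5 under tZ (log2 change -4.09, adjusted p = 1.8e-10), with -4.08 in wild type. Its mutant tZ mean of 10.9 was under the floor. The largest unnamed rises, in 262566_at, 267260_at and 259018_at, were 3.50, 3.41 and 3.35, against 3.42, 2.80 and 3.92 in wild type.

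Of 14 measured glutaredoxins, small redox proteins of which the CC type occurs in land plants, 8 rose (17.9% of all probe sets did), 2 fell and 4 did not pass, and the median change was 0.72 against -0.07 for all probe sets. Loci of this list were edited after these values had been seen, so its share and median are no independent evidence. GRXS8 had the largest change, from 4.92, 0.476 and 3.41 to 41.0, 30.6 and 37.0. All its DMSO arrays were under the floor, so the change was at least 3.22-fold (adjusted p = 2.5e-05), taking the floor as the DMSO level. GRXS5 and GRXS3, likewise under the floor with DMSO, rose at least 1.65-fold and 1.84-fold (adjusted p = 0.0013 and 0.0017). GRXS4 read 23.8, 22.9 and 18.5 and then 40.9, 32.8 and 93.1 (log2 change 0.94, adjusted p = 0.026), against -0.02 in wild type (interaction adjusted p = 0.71). GRXS3, GRXS4, GRXS5 and GRXS8 lie next to each other and are close copies whose probes can share signal. ROXY1, a petal and anther development glutaredoxin, rose by 0.73, AT1G03020 by 0.72 and AT1G06830 by 0.71. GRX480, which binds TGA factors of the salicylate response, fell from 18.6, 27.9 and 17.7 to 13.1, 11.9 and 4.44 (log2 change -0.68, adjusted p = 0.030), and GRXC1 fell by 0.58. No glutaredoxin had an interaction that passed.

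Cell wall genes were split, and their counts stand against 17.9% higher and 24.9% lower over all probe sets. Among 19 expansins, proteins that loosen the wall, 3 rose, 2 fell and 14 did not pass (median change 0.22). EXPA4 went from 38.6, 48.9 and 36.8 to 145, 152 and 135 (log2 change 1.59, adjusted p = 1.3e-07). EXPB3 rose by 1.44 and EXPA9 by 1.05, the latter from a DMSO mean of 9.72, under the floor. EXLA1 fell from 1270, 1647 and 1740 to 749, 740 and 1028 (log2 change -0.88, adjusted p = 0.0016) and EXPB1 fell by 0.53. The groups did not overlap in EXPA4 or EXLA1. The wild type changes of EXPA4, EXPB3, EXPA9 and EXLA1 were 1.83, 1.73, 1.14 and -1.02. Of 10 xyloglucan endotransglucosylases, which cut and rejoin wall polymers, 3 rose and 7 did not pass. These 3 were XTH19 (log2 change 1.1), XTH18 (1.04, adjusted p = 0.030) and EXGT-A3 (0.49). XTH18 did not pass without DMSO replicate 1, DMSO replicate 3 or tZ replicate 3 of the mutant (adjusted p = 0.12, 0.054 and 0.14). Of 8 cellulose synthases and relatives, CSLD2 and CSLA03 fell by 0.45 and 0.53 and 6 did not pass. CSLA03 did not pass without DMSO replicate 2, DMSO replicate 3 or tZ replicate 1 of the mutant (adjusted p = 0.13, 0.11 and 0.19).

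Sugar-transferring and detoxifying enzymes included genes called in each direction, in the first family at shares under the 17.9% higher and 24.9% lower of all probe sets. Of 51 UDP-glycosyltransferases, 6 rose, 11 fell and 34 did not pass, 21 of them under the floor in all group means, and the median was -0.08. Besides UGT76C2, UGT72E1 went from 32.3, 26.3 and 29.4 to 71.8, 78.4 and 67.8 (log2 change 1.07), and UGT71C4 from 301, 297 and 291 to 137, 147 and 135 (log2 change -1.03, adjusted p = 5.3e-08). Of 13 glutathione transferases, 4 rose, 3 fell and 6 did not pass, against the same 17.9% and 24.9%. GSTU20 rose from 766, 658 and 674 to 1799, 1676 and 1798 (log2 change 1.32, adjusted p = 2.2e-08), and GSTU16 fell by 0.87 and GSTU27 fell by 0.75. Of 22 cytochrome P450 genes, mostly of the CYP71B subfamily, 0 rose, 7 fell and 15 did not pass (24.9% of all probe sets fell, median -0.18). CYP71B6 fell from 345, 334 and 401 to 157, 171 and 145 (log2 change -1.14). CYP71B22 had a smaller fall in the mutant (log2 change -0.95) than in wild type (-1.57), and this difference did not pass (interaction adjusted p = 0.61).

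Transcription factor lists held few measured members. Of 14 bZIP factors, 0 rose (17.9% of all probe sets did), 5 fell (24.9% did) and 9 did not pass. AT4G38900 went from 172, 167 and 172 to 66.5, 72.7 and 59.3 (log2 change -1.25, adjusted p = 3.2e-08). BZIP60 and BZIP28, which act in the unfolded protein response of the endoplasmic reticulum, fell by 1.04 and 0.81, and BZIP53 fell by 1.01. The wild type changes of these 4 genes were -1.39, -1.10, -0.85 and -1.07. Of 7 WRKY factors, 0 rose, 2 fell and 5 did not pass, against the same 17.9% and 24.9% of all probe sets. WRKY53, known in leaf senescence, fell from 55.2, 87.5 and 86.5 to 33.3, 34.3 and 32.8 (log2 change -0.97), and ZAP1 fell by 0.33. HAT2, an auxin-induced homeobox factor, rose from 47.8, 29.0 and 48.0 to 112, 112 and 125 (log2 change 1.31). Of 12 auxin response genes, 2 rose (17.9% of all probe sets did), 2 fell (24.9% did) and 8 did not pass. IAA18 (log2 change 0.41) and GH3.9 rose, the latter at least 1.53-fold from under the floor on all 3 DMSO arrays. GH3.17 and IAA30 fell by 0.65 and 0.64, IAA30 to a tZ mean of 10.4, under the floor. Among those called, only GH3.17 also passed in wild type (log2 change -0.63). The clock gene GI had a log2 change of -0.45 with overlap and did not pass (adjusted p = 0.054), against -0.94 in wild type (interaction adjusted p = 0.78). Of 5 histone genes, 3 rose (17.9% of all probe sets did): HTB2 from 112, 105 and 109 to 245, 244 and 246 (log2 change 1.1), the centromeric histone HTR12 by 0.61 and HTB1 by 0.33.

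**Figure D5:**
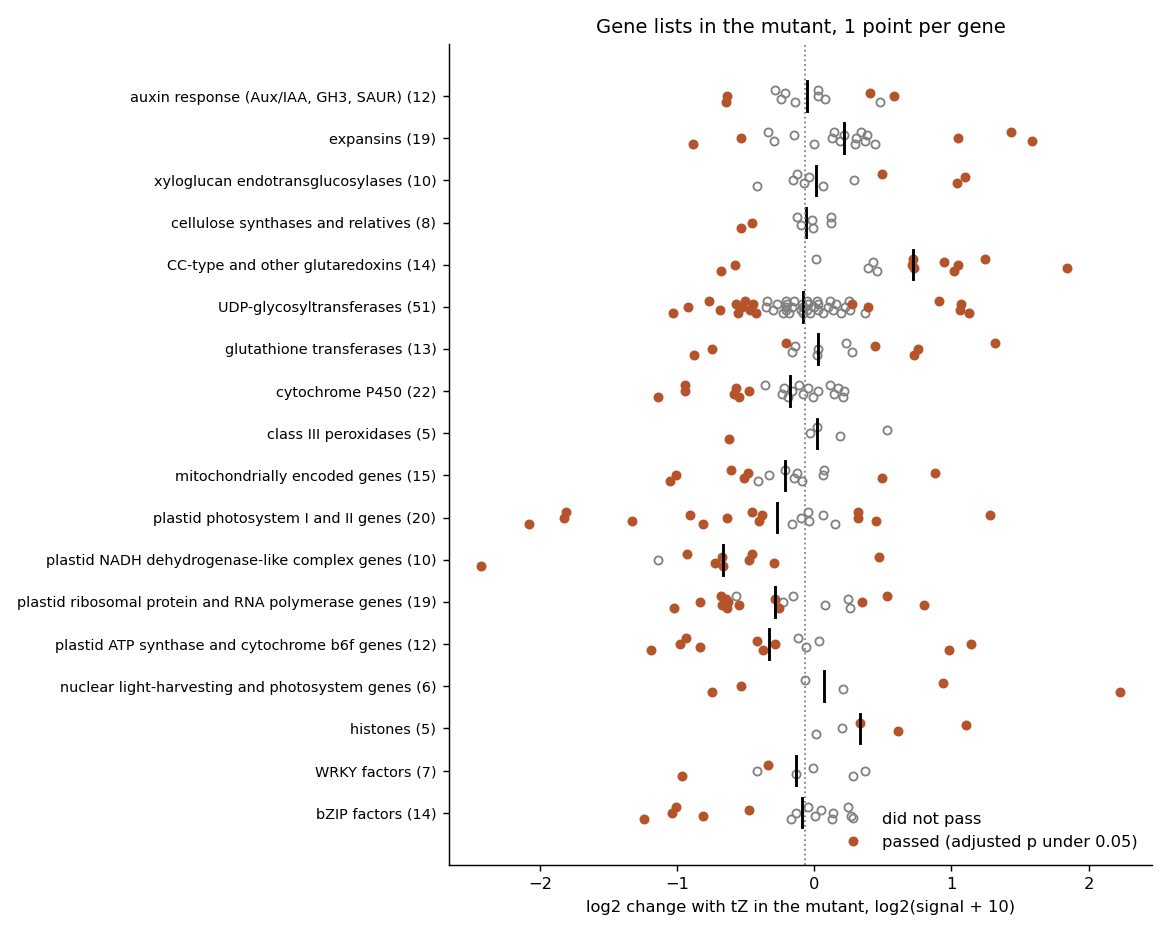
Log2(signal + 10) change of the mutant with tZ for each measured gene of the lists with at least 5 members, filled where it passed at an adjusted p of 0.05. Black bars are list medians and the dotted line is the median of all tested probe sets, -0.07. Glutaredoxins lie mostly right of the line, plastid NADH dehydrogenase-like genes mostly left, and most other lists on both sides.

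Plastid-encoded genes were lower with tZ more often than higher. Of 69 measured, 39 fell (24.9% of all probe sets did), 10 rose (17.9% did) and 20 did not pass, with a median change of -0.40 in the mutant and -0.28 in wild type. In the NADH dehydrogenase-like complex, which cycles electrons around photosystem I, 8 of 10 fell and ndhK rose (log2 change 0.47). The ndhA gene read 1495, 1369 and 1320 and then 818, 893 and 905 (log2 change -0.67, adjusted p = 2.4e-06). Of 20 photosystem genes, 10 fell, 4 rose and 6 did not pass. The antenna protein gene psbB fell from 1283, 1308 and 1319 to 339, 281 and 287 (log2 change -2.08, adjusted p = 1.8e-09), and psaA, a reaction centre gene of photosystem I, fell by 1.33. In the opposite direction psbE, a cytochrome b559 subunit, rose from 336, 341 and 301 to 759, 819 and 835 (log2 change 1.28). Of 19 genes for ribosomal proteins and RNA polymerase, 10 fell and 3 rose (24.9% and 17.9% of all probe sets), among them rps16 (log2 change -1.02) and rpl16 (0.80). Of 12 ATP synthase and cytochrome b6f genes, 7 fell and 2 rose, petL by 1.15 and atpF by 0.98. In psbN, psbT and ndhG the tZ array of replicate 1 was the highest of its group, at 310, 385 and 400 against 69.1 to 73.3, 223 to 228 and 102 to 118 on the other two. The 5S rRNA was highest on the same array, and its part in these values was not tested.

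Of 6 measured nuclear genes for the photosystems, 2 rose, 2 fell and 2 did not pass. Over all probe sets 17.9% rose and 24.9% fell, which is the background for each count here. PSBY, a small photosystem II protein, rose from 982, 661 and 780 to 3630, 3718 and 4019 (log2 change 2.23, SE 0.12, adjusted p = 6.8e-09), and PSAN of photosystem I from 1857, 1326 and 1739 to 2941, 2985 and 3481 (log2 change 0.94). PSBW and LHCB4.3 fell by 0.53 and 0.74, and LHCB4.1 and LHCB4.2 did not pass. In wild type these 4 genes changed by 2.33, 0.95, -0.61 and -0.63. Among Calvin cycle genes SBPASE fell from 5003, 5147 and 4744 to 2784, 2825 and 2903 (log2 change -0.80, adjusted p = 1.0e-06), PRK rose by 0.46 and RCA did not pass. Of 4 chlorophyll synthesis genes, CHLI2 rose by 0.27 and 3 did not pass.

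Markers of other cell types gave little. PYK10 fell by 0.83 on the log2 scale (899, 1218 and 1271 to 736, 663 and 495, adjusted p = 0.0022). The stomatal lineage genes SPCH, MUTE and FAMA did not pass, and the mesophyll genes RCA, LHCB4.1 and PORB did not either. The stem cell gene CLV3 was under the floor. The part of any change in cell types in the results above was not tested.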

How the data were processed

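The authors' deposited table holds, for each of 12 arrays, MAS5 signals (linear intensity values of probe sets; the submitters' processing notes name MAS5). Its version and settings are not given in the sources used here, and no detection calls were used. No further background correction or scaling was applied. Tests on log2(signal + 10) used limma 3.58.1 (R 4.3.3), fitting 1 mean for each group over all 12 arrays, with moderated variances with a trend on signal, two-sided tests and Benjamini-Hochberg adjustment over 22746 probe sets for each contrast. Controls were compared by an exact permutation test. With only 3 arrays a group, their number limits the precision, and ± is the SD over 3 arrays. The fitting code was tested on simulated signals with independent noise and known changes in some probe sets of the mutant tZ group. These signals held no division between tZ and DMSO arrays, so the test does not cover that difference. Tables were handled with pandas 2.3.3 and plots drawn with matplotlib 3.10.9.

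Gene names came from GEO's platform annotation, updated through the RefSeq locus table (TAIR10.1), which held 13436 of the 13513 probe sets with 1 name. A gene with several probe sets was read from the brightest. The members and gene lists were chosen with earlier results of these data known, and some list entries were added, widened or dropped after these values had been seen: loci of glutaredoxins, the list of further cytokinin-induced genes, the mitochondrial genes by symbol, the heat shock name pattern, and 3 symbols that belonged to another gene in this annotation. In all, 39 lists had measured members. Genes were named by rule: all measured response regulators, the 12 largest rises and 12 largest falls that passed without overlap, from each list at most 4 that passed, all members of lists with at most 4, the 8 smallest interaction p-values, and the 8 most alike between genotypes. Others are given as chosen after their values were seen, or as members of a list. Alternatives were other pseudocounts, scalings, filters, weights, a replicate block, thresholds and leaving out each array. Same-numbered tZ and DMSO arrays of the mutant did not deviate together (r = -0.033, -0.0040 and -0.046), so the numbers were not taken to pair the arrays. Sequences of genes or probes were not used here.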

Additional observations from a re-analysis of the deposited data

How the results depend on the processing

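The calls for tZ against DMSO in the mutant kept their counts within 1.5 times under the 22 alternatives run for them. Without 1 array, rises ran from 3703 to 4163 and falls from 5008 to 5723, and the shares of wild type rises and falls called in the mutant from 80.01% to 87.2% and from 77.0% to 85.1%. The number of interactions called was 1 with a pseudocount of 1, 2 with a pseudocount of 50, 1 with quantile normalization, 1 without the dimmest 40% of probe sets, and 0 to 1 with 1 array left out, the 1 being without replicate 1 of the mutant tZ group. ARR16 passed in each of these (adjusted p = 0.044, 0.021, 0.047, 0.032 and 0.048), and ARR15 with a pseudocount of 50 (adjusted p = 0.0011). The cause was not tested. With the replicate number as a block, 4028 rose, 5524 fell and 0 interactions passed, although the numbers were not taken to pair the arrays.

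Of 132 named genes, 108 passed, of which 100 passed in each alternative run for them (21 or 22). AT5MAT, COR15A, CSLA03, CYP71B23, PDF1.2, THI2.2, XTH18 and petD lost their call in at least 1, all 8 under the stricter threshold. At 0.05 THI2.2 passed in 8 of the 22, CYP71B23 in 11, petD in 14, CSLA03 in 16, XTH18 in 19, COR15A in 20, and AT5MAT and PDF1.2 in 21 each. EIN3, GI, HEMB1 and ILR3, which had not passed, did so in at least 1. Change in petD ran from -1.57 to -0.60 and in THI2.2 from 0.36 to 0.76 without single arrays. No called change took the other sign, and 8 changes that had not passed did. Of 39 list medians, 12 changed sign in at least 1 alternative; under quantile normalization these were the Calvin cycle (0.014), chlorophyll synthesis (-0.001) and mesophyll markers (0.014).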

Other observations

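Genes of the mitochondrial genome were called in both directions with tZ in the mutant, at shares not far from those of all probe sets. Of 15 measured, 5 fell (24.9% of all probe sets did), 2 rose (17.9% did) and 8 did not pass, with a median of -0.22 on the log2 scale in the mutant and -0.16 in wild type, against -0.07 and -0.08 for all tested probe sets. The complex I genes nad5 and nad4L fell, each to under the floor on 2 of 3 tZ arrays. The nad5 signal went from 21.6, 46.1 and 31.5 to 14, 10.4 and 6.80 (log2 change -1.05, adjusted p = 0.0012). The nad4L signal went from 19.5, 34.3 and 28.8 to 6.68, 7.43 and 11.3 (log2 change -1.01, adjusted p = 2.7e-04). The cytochrome oxidase gene cox1 rose from 61.1, 54.7 and 46.1 to 88.1, 95.3 and 146 (log2 change 0.88, adjusted p = 8.3e-04). None of the 15 had an interaction that passed.

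In the list of touch and general stress genes, COR15A, a cold-induced protein of the chloroplast, rose from 124, 70.5 and 103 to 148, 159 and 255 (log2 change 0.85, adjusted p = 0.010), and in wild type by 1.17. It did not pass without DMSO replicate 2 or tZ replicate 3 of the mutant (adjusted p = 0.056 and 0.057). ZAT10, a zinc finger factor of general stress, read 40.4, 40.3 and 45.2 under DMSO and 32.3, 50.4 and 34.6 under tZ, with overlap, and did not pass (log2 change -0.10, adjusted p = 0.73).

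On the tZ array of replicate 1 in the mutant, 31 probe sets differed at least 2-fold from the mean of its group mates, against 16 and 37 on the other two. The 5S rRNA control, which is not among the probe sets counted here, also stood apart on that array, at 104 against 32.5 and 25. The plastid gene petD was at 225 on this array and at 68.2 and 51.7 on the other two, while its DMSO arrays read 161, 258 and 181.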
